A study of Nicotiana tabacum with 10 samples.

Results

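The short abundant transcripts of BY-2 tobacco cells were taken as the 200 gene models of at most 600 bases with the highest mean TPM over 7 control libraries. TPM is the number of reads divided by effective length and scaled to a common sum in each library. They were chosen from 22477 models of that length and 69500 models in all. BY-2 is a suspension line of Nicotiana tabacum cv. Bright Yellow 2 that divides fast and depends on auxin from its medium. The 7 control samples were kept in Murashige and Skoog medium that held the synthetic auxin 2,4-D (2,4-dichlorophenoxyacetic acid) at 0.2 mg/l, and the 3 auxin-free samples were inoculated into that medium without 2,4-D. All samples were of the same line, labelled as in exponential growth in both groups, and were collected after 48 h. RNA was sequenced in bulk, and the libraries held 11280031 to 23705016 estimated reads. Whether the auxin-free samples were grown as separate cultures is not labelled, and the p-values reflect only how far these samples differ, which may be technical.

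Auxin is the plant hormone that keeps cultured tobacco cells dividing, and without it such cells leave division and enlarge. Dividing plant cells are known for large amounts of short messages, among them those of the core histones, which package newly copied DNA, and of the ribosomal proteins, which build the machinery of protein synthesis. Short messages of other kinds, for small secreted or metal-binding proteins for instance, are common in stressed or differentiating plant cells. Which of these the 200 models encode was not determined, because the files' identifiers were not paired with gene names and 0 of them matched the 79372 genes of the reference table. The label of dividing cells was therefore not checked against marker genes, and the models are described by length, rank and level.

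The choice rested on control TPM, and the values that follow in this paragraph describe it. Mean control TPM ran from 10470 at rank 1 to 434 at rank 200, with a median of 724. The next model outside stood at 432, so the limit fell on a continuous slope. Model lengths ran from 177 to 597 bases, with a median of 264.5. Models of at most 300 bases made up 119 of the 200, against 31.6% of all models within the length limit. Lengths that are multiples of 3, as a coding sequence has, made up 82% of the 200 and 92.8% of the models within the limit. The models lay on 194 scaffolds, and 17 of them had whole read counts in every library, within a tolerance of 0.001 reads. For the other models Salmon had divided reads with similar models, as can be frequent in tobacco, whose genome joins those of a pair of parent species.

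Much of the high TPM of these models came from small effective lengths. The effective length is an estimate of the number of positions from which a fragment could have been read. It becomes very small where a model is shorter, or hardly longer, than most fragments. The median control effective length was 35.4 bases, or 13.6% of model length, against 82.8% for models of 1200 to 1800 bases with the same reads. It was under 50 bases for 109 of the 200 and as low as 7 bases. Behind each model stood a control mean of 107 to 17961 estimated reads, with a median of 1029. All 200 passed the filter on low counts. Ranking the short models by reads instead of TPM kept 89 of the 200, and ranking by CPM (reads relative to library size, scaled between libraries) per base of model length kept 105. Of the 200, 132 were in the 200 highest of every control library, an overlap favoured by the choice on these same libraries.

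Together the 200 models took a smaller share of the auxin-free libraries than of any control. They held 2.89% ± 0.669 of the estimated reads of control libraries (SD, n = 7) and 0.96% ± 0.167 of those of auxin-free libraries (SD, n = 3). By library the auxin-free shares were 1.03, 0.768 and 1.08%, and the control shares ran from 2.12 through a median of 3.15 to 3.78%. The groups did not overlap. In percent of reads the controls had the larger SD, around a mean that was also higher. On the TPM scale the same models held 21.2% ± 2.54 of the control sum and 10.4% ± 1.37 of the auxin-free sum (SD, n = 7 and 3). Since the models were picked for their control level, a lower share elsewhere is favoured by the choice and no test is given. In bulk RNA, fewer cells making a message and less of it per cell cannot be told apart.

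**Figure D1:**
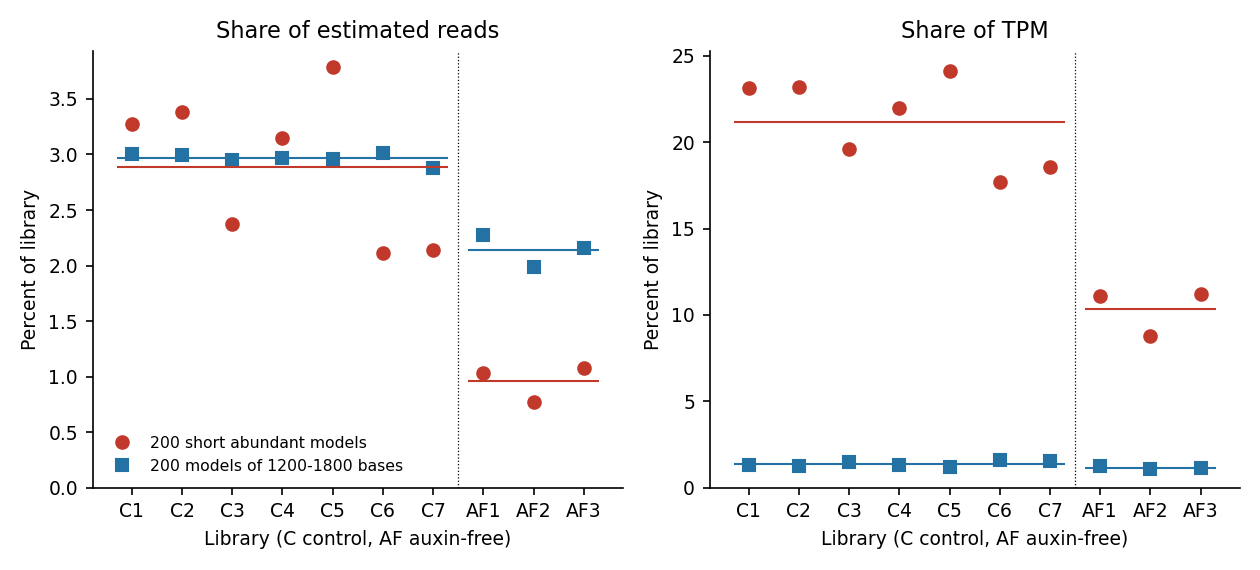
Percent of estimated reads (left) and of TPM (right) held by the 200 short abundant models (circles) and by 200 models of 1200 to 1800 bases with the same control reads (squares), in each control (C) and auxin-free (AF) library; horizontal lines are group means. The short models hold 2.12 to 3.78% of control reads and 0.768 to 1.08% of auxin-free reads, while the longer models hold 2.88 to 3.01% and 1.99 to 2.27%.

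Singly, most of the 200 models fell without auxin. In edgeR's quasi-likelihood test over all 37034 tested models, 164 of the 200 fell, 5 rose and 31 did not pass at an adjusted p of 0.05. Over all tested models 63.3% were called, 30.4% lower and 32.9% higher. Of the 164, 151 fell at least 2-fold, 91 at least 4-fold and 22 at least 8-fold. Of all tested models 20.2% fell at least 2-fold, 8% at least 4-fold and 1401 of the 37034 at least 8-fold. The median log2 fold change of reads was -1.89 over the 200, with the middle 50% between -2.37 and -1.18, and 0.02 over all tested models. Every auxin-free library lay below every control in 147 of the 200 and above every control in 4, against 25.7% and 29.5% of all tested models.

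The choice and the comparison shared the same controls, so both were also done on different ones. With the 200 models chosen on control replicates 1, 3, 5 and 7 and tested with control replicates 2, 4 and 6 against the auxin-free libraries, 159 fell and 7 rose in edgeR's test, with a median log2 fold change of -1.88. In that test 27.5% of all models were called lower and 29.6% higher. The 2 choices shared 195 models. Both choices still rest on the control level.

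**Figure D2:**
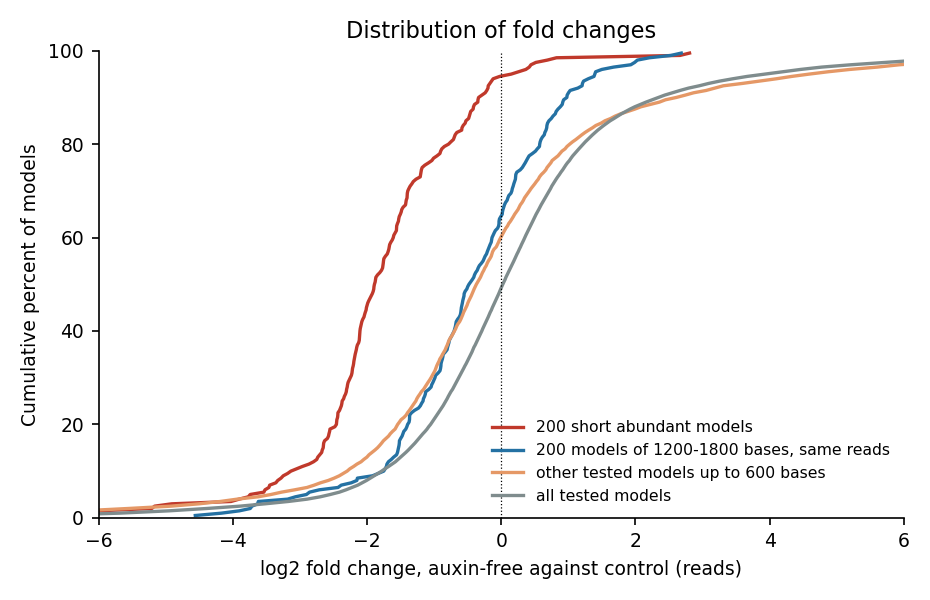
Cumulative percent of models (y axis) at or below each log2 fold change of reads, auxin-free against control (x axis, cut at 6 either way), for 4 sets of models. The curve of the 200 short abundant models lies to the left, with a median of -1.89, the 1200 to 1800 base models with the same reads have a median of -0.48, other tested models of at most 600 bases -0.37, and all tested models 0.02.

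The model at rank 1, of 240 bases, had a lowest, median and highest CPM of 136, 376 and 474 in the controls and 63.5, 27.6 and 48.8 CPM in the 3 auxin-free libraries. No auxin-free library reached the lowest control, and the log2 fold change was -2.79 ± 0.47 (SE; edgeR adjusted p = 0.000178). The controls themselves were spread widely. At rank 3, a model of 204 bases went from 47.3, 117 and 197 CPM in the controls (lowest, median, highest) to 17.2, 14.3 and 25.1 CPM, again without overlap (log2 fold change -2.70 ± 0.45 SE, edgeR adjusted p = 0.00016). The rank 2 model, of 198 bases, had 109 to 168 CPM in controls and 53.8, 29.1 and 48.5 CPM without auxin. It too was lower in every auxin-free library (log2 fold change -1.67, edgeR adjusted p = 3.44e-05).

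Not all of the most abundant models fell this far. The rank 4 model, of 186 bases, had control values from 45.7 to 91.5 CPM and auxin-free values of 39.6, 38.2 and 59.0 CPM. The groups overlapped, and a log2 fold change of -0.59 passed narrowly (edgeR adjusted p = 0.0447) but not once the trend on length was removed (edgeR adjusted p = 0.108). The rank 7 model, of 358 bases, carried the most reads of all 200. It had 224, 1235 and 1537 CPM in controls (lowest, median, highest) and 417, 431 and 532 CPM in auxin-free libraries, so its control range enclosed all auxin-free values (edgeR adjusted p = 0.0635). The remaining models among the 10 highest ranks had log2 fold changes between -2.55 and -0.57, and each passed edgeR's test. At rank 15, a model of 582 bases had 798.1 to 1435 CPM in controls and 771, 960 and 1096 CPM without auxin. Its log2 fold change was -0.17 ± 0.21 (SE; edgeR adjusted p = 0.487), so no difference beyond the spread was detected.

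The deepest falls nearly emptied a few models. Nitab4.5_0022877g0010.1, of 219 bases and rank 21, had 33.5, 44.7 and 50.8 CPM in the controls (lowest, median, highest) and 0.067, 0 and 0.321 CPM in the auxin-free libraries. Only 5.78 estimated reads in all stood behind the auxin-free values, against a control mean of 765 per library. The log2 fold change was -8.35 ± 0.43 (SE; edgeR adjusted p = 7.73e-09), and -10.1 without auxin-free replicate 3, so its size was poorly fixed. Nitab4.5_0000271g0150.1, of 249 bases and rank 174, had 13.5, 16.6 and 19.9 CPM in the controls and 0, 0.128 and 0.128 CPM without auxin, from 3.93 estimated reads (log2 fold change -7.47 ± 0.36 SE, edgeR adjusted p = 4.4e-09). The 7 controls of this model lay close together, unlike those of the rank 1 model. Both had divided reads, and their near absence can depend on that division. A better covered deep fall, chosen after its values were seen, was the model at rank 48, of 453 bases, with 291 to 645 CPM in controls and 18.1, 6.65 and 7.77 CPM without auxin, from 495 reads (log2 fold change -5.19, edgeR adjusted p = 2.84e-07).

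A few of the 200 rose, and 3 of them rose by 6.34 to 7.83-fold. Nitab4.5_0012156g0030.1, of 198 bases and rank 86, had 9.02, 12.5 and 17.5 CPM in the controls and 104, 91.1 and 95.6 CPM in the auxin-free libraries. All auxin-free values stood far above the highest control (log2 fold change 2.97 ± 0.17 SE, edgeR adjusted p = 1.78e-08). Nitab4.5_0000452g0110.1, of 231 bases and rank 93, went from 11.5, 18.6 and 31.9 CPM to 136, 122 and 153 CPM (log2 fold change 2.81 ± 0.23 SE, edgeR adjusted p = 4.48e-07). The third, of 213 bases and rank 113, went from a control median of 19 CPM to 119, 117 and 121 CPM (log2 fold change 2.66, edgeR adjusted p = 3.03e-06). By mean TPM of the auxin-free libraries these 3 were ranked 3, 2 and 1 among all short models, where their effective lengths were also small, 9.05, 15 and 15.9 bases in the controls. Of the other two models that rose, the one at rank 187, of 309 bases, had a log2 fold change of 0.80 and no overlap of the groups (edgeR adjusted p = 0.00854). The one at rank 107, of 207 bases, had a log2 fold change of 0.44 with overlapping groups (edgeR adjusted p = 0.0377).

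The 31 models that did not pass had log2 fold changes from -1.53 to 0.69, and 25 of them lay below 0. For only 5 of the 31 did the 95% interval of the fold stay within 1.5-fold in either direction. For the rest a moderate change was not excluded.

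TPM gave the same direction, with a smaller median fall over the 200. The median log2 ratio of mean TPM, auxin-free to control, was -1.73 over the 200, and 182 of them were lower in TPM against 189 in reads. In limma's test on log2(TPM + 1), 158 fell and 7 rose, where 25.2% of all tested models were called lower and 34% higher. The effective length was 1 fixed value in all 10 libraries for 86 of the 200. These 86 had a median log2 fold change of reads of -1.76, and 67 of them fell, against -1.97 and 97 of the 114 whose effective length varied. Of the 91 models with a control effective length of 50 bases or more, 80 fell and 1 rose, with a median of -2.04, while of the 109 below it 84 fell and 4 rose, with a median of -1.63. The falls were thus found at both ends of the effective lengths.

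**Figure D3:**
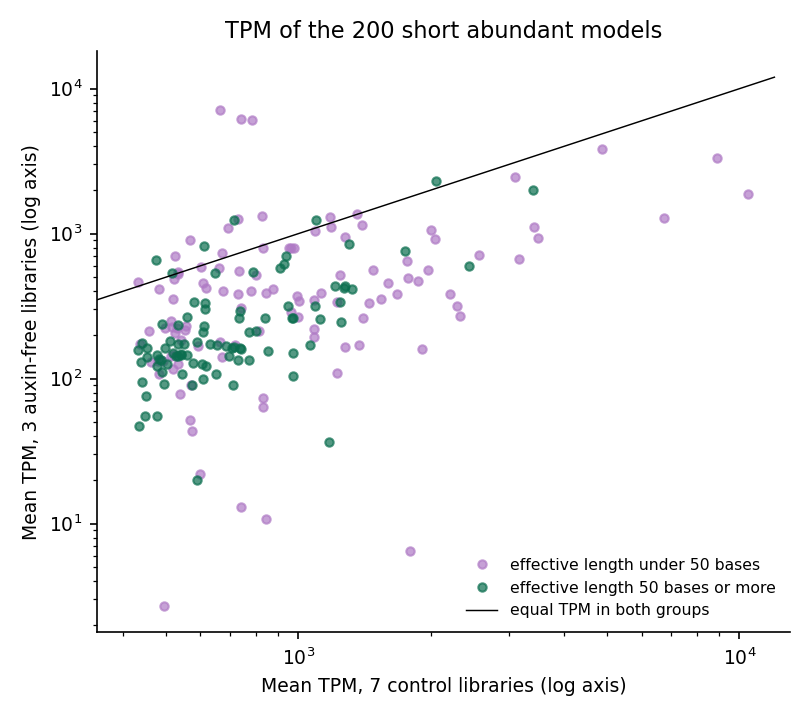
Mean TPM over 3 auxin-free libraries (y axis, log) against mean TPM over 7 control libraries (x axis, log) for each of the 200 models, coloured by control effective length; the line marks equal TPM. Most points of both colours lie below the line, 182 of 200, and the 3 models far above it are those that rose 6.34 to 7.83-fold.

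Part of the 200 held their place among short models without auxin. By auxin-free mean TPM, 92 of them (46% of each list of 200) were still in the 200 highest, 158 were in the 500 highest and 13 lay beyond rank 1000. The median auxin-free rank was 223.5. In the single auxin-free libraries 96, 79 and 98 of the 200 were among the 200 highest. The single controls, which took part in the choice and are favoured by it, had 166 to 189.

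Models of 1200 to 1800 bases fell less often at the same number of reads. Each of the 200 short models was paired with the unused model of that length whose control mean of reads was nearest, with no pair differing by more than 5.1%. Of these 200 longer models 105 fell, 47 rose and 48 did not pass in edgeR's test, with a median log2 fold change of -0.48. The difference between the medians was -1.41, and in 156 of the 200 pairs the short model had the lower fold change. In the 3 auxin-free libraries, each set against the control mean, the short models had medians of -1.75, -2.10 and -1.68 on the log2 scale and the longer ones -0.36, -0.58 and -0.41. The difference between the sets, -1.39 ± 0.12 (SD, n = 3), was thus similar in all 3. In single controls set against the other controls it ran from -0.56 to 0.59. The short models were chosen on control TPM and the longer ones on control reads, so these are descriptions and carry no p. The libraries themselves differed in how many bases effective length falls short of full length, a shortfall that depends on the fragments among other things. For models above 1400 bases the median shortfall averaged 380 bases over the 7 control libraries (SD 17.5), none of them under 356. It was 255, 275 and 276 bases without auxin, so the groups did not overlap. With effective lengths as offsets in edgeR's fit, the difference between the medians was -1.50. For 86 of the 200 the effective length was 1 fixed value in all 10 libraries, so these offsets could not carry the shortfall for them. The median ratio of effective length, auxin-free to control, was 1.0 over the 200. Any other part of the shortfall in the fold changes by length was not tested. At equal reads a longer model also has fewer transcripts, and the longer models had a median control TPM of 30.8, against 724 for the short ones.

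A match on TPM was possible for few models, because hardly any longer model reached these values. Only 139 models above 600 bases, 13 of them of 1200 to 1800 bases, had a control mean TPM at or above that of rank 200. With a tolerance of 10%, 16 of the 200 could be paired on TPM with a model of 1200 to 1800 bases. These 16 longer models had a median log2 fold change of -1.18, and 14 of them fell and 0 rose in edgeR's test. Their short partners had a median of -2.11, with 13 that fell and 2 that rose. At matched TPM the gap was thus -0.94 on few pairs, against -1.41 at matched reads over all 200. The 16 longer models had a median control mean of 19506 reads, against 1921 for their short partners. These gaps rest on unlike sets, so their difference cannot be read as an effect of matching on TPM.

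At the same reads, the fold change rose with length through every window examined. Models of at most 600 bases outside the 200, of which 161 could be paired, had a median log2 fold change of -1.33, with 115 that fell and 13 that rose. Above 600 and up to 900 bases the median over 200 models was -1.30, with 145 that fell and 20 that rose. It was -0.74 from 900 to 1200 bases, -0.48 from 1200 to 1800, -0.18 from 1800 to 2400 and -0.04 above 2400, where 64 fell and 60 rose. The 200 short abundant models, at -1.89, lay below all of these medians. They share the window of at most 600 bases with the paired models outside the 200, but not the lengths within it. The 161 of them paired in that window had a median of -1.77. Their median length was 243 bases, against 486 for their partners outside the 200. Their median control TPM was 711, against 134 for these partners. Length and level cannot be told apart in this gap.

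The highest-TPM models of other lengths fell too. The 200 models of highest control TPM between 600 and 900 bases had a median log2 fold change of -1.95, and 182 of them fell and 9 rose in edgeR's test. That median lay slightly below the -1.89 of the short ones, and the middle 50% of the 2 sets overlapped. For 900 to 1200 bases the median was -1.64, for 1200 to 1800 bases -0.86, for 1800 to 2400 bases -0.74 and above 2400 bases -0.22. The deep fall was therefore shared with the abundant models just above 600 bases. These sets also differed in level, with median control TPM of 411 from 600 to 900 bases and 158 from 1200 to 1800 bases. Reads differed too, with a median control mean of 6073 from 600 to 900 bases, against 1029 for the short abundant models.

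**Figure D4:**
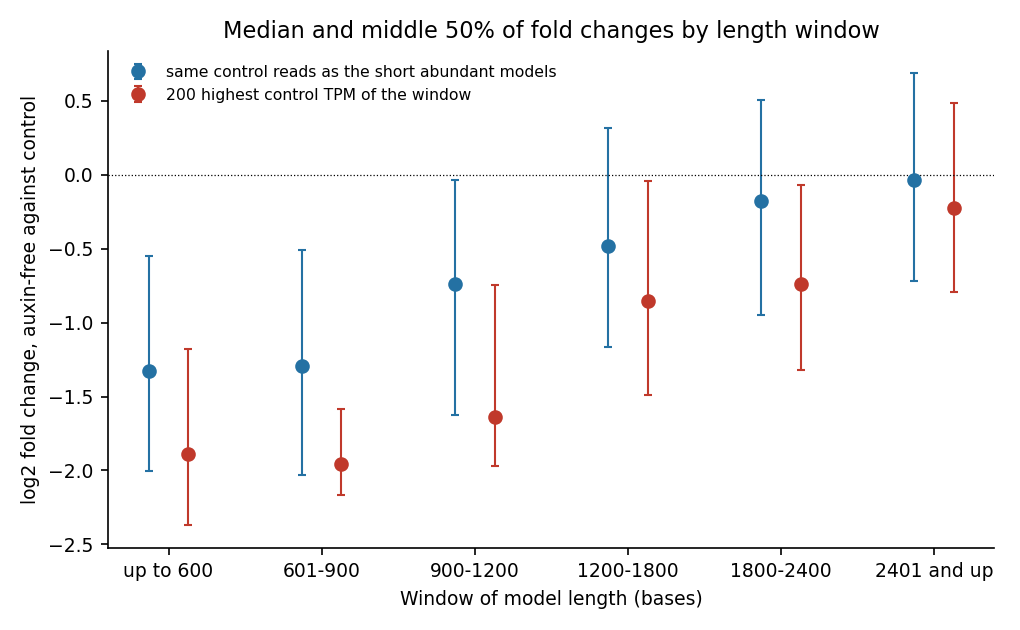
Median log2 fold change of reads, auxin-free against control (y axis), with bars over the middle 50% of models, by window of model length (x axis): models with the same control reads as the short abundant ones, and the 200 models of highest control TPM in the window, which for at most 600 bases are the short abundant models themselves. Medians rise with length from -1.33 to -0.04 in the first series and from -1.89 and -1.95 to -0.22 in the second.

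Whether the 200 fell beyond the general trend on length depended on the models that set the trend. Over all tested models outside the 200, the log2 fold change gained 0.25 per doubling of length. A smooth trend on length fitted to each library from these models put the 200 at a median of only -0.18, between -0.25 and -0.03. With that trend removed, 157 of the 200 were lower in edgeR's test and 7 higher, where 37.1% of all tested models were called lower and 28.3% higher. The median of the 200 was then -1.69 and that of all tested models -0.17. The fall beyond this trend was partly shared by the 1200 to 1800 base models with the same reads. Of these, 117 (58.5%) were lower and 36 (18%) higher, with a median of -0.72. All 157 short models that were lower were among the 164 that fell without the correction.

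The trend was steeper among well-covered models, at 0.47 per doubling of length. Fitted only to the 13404 models outside the 200 with a control mean of at least 198 reads, the lowest 10% of the 200 being below this, it left 113 of the 200 lower and 35 higher in edgeR's test. In that fit 19.6% of all tested models were called lower and 47.2% higher, since the correction moved the median of all tested models to 0.48. Of the 13404 well-covered models that set this trend, 31.8% were called lower and 37.9% higher. Among the 1200 to 1800 base models with the same reads, 85 (42.5%) were lower and 63 (31.5%) higher. The median of the 200 was -0.73, that of the 13404 well-covered models 0.08, and that of the 1200 to 1800 base models with the same reads -0.18. A smaller part of the fall thus remained beyond this trend than beyond the trend of all models. This alternative was listed with the main trend, and the choice between them was not tested.

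**Figure D5:**
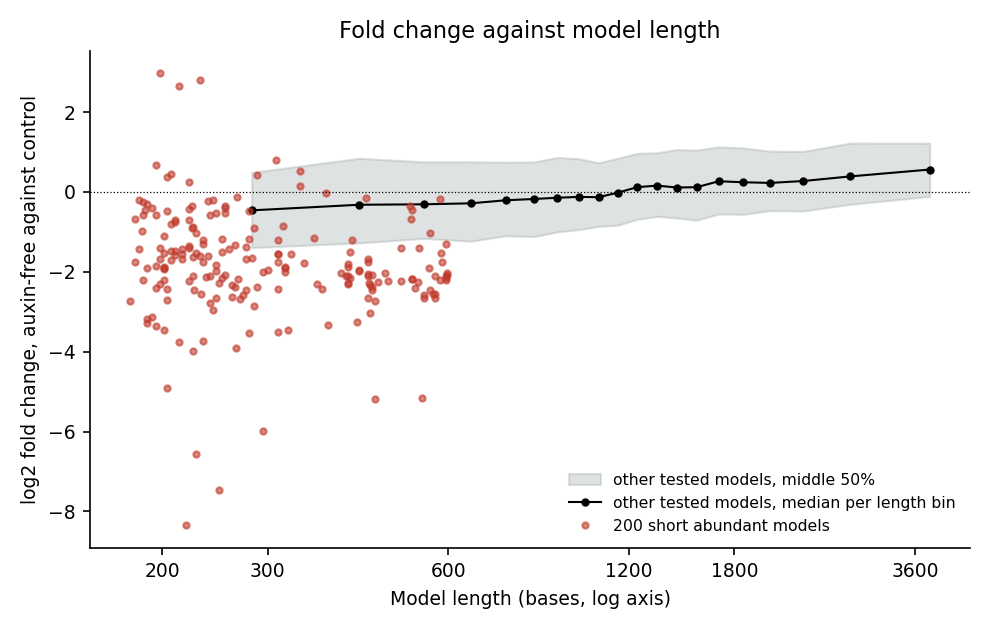
Log2 fold change of reads, auxin-free against control (y axis), against model length in bases (x axis, log) for the 200 short abundant models (dots), with the median (line) and middle 50% (band) of the other tested models in 20 length bins. The bin medians run from -0.46 to 0.56, and most dots lie below the band.

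Among the 200, the models above 400 bases had the lowest medians. Of the 29 models above 400 and up to 500 bases, 28 fell and 0 rose, with a median log2 fold change of -2.12. Of the 30 above 500 bases, 26 fell and 0 rose, with a median of -2.13. At the short end, 18 of the 25 models of at most 200 bases fell and 1 rose, with a median of -1.42. Between these classes the order was not even. The median was -1.61 over 63 models above 200 and up to 250 bases, -1.95 over 31 models up to 300 bases and -1.76 over 22 models up to 400 bases. Other tested models of the 6 length classes, outside the 200, had medians from -0.75 to -0.28, likewise without an even order.

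The median fold change of the 200 also followed the number of reads. Of the 50 models with fewest reads, a control mean of 107 to 343, 32 fell and 4 rose, with a median log2 fold change of -1.36. Of the 50 with most, 3847 to 17961 reads, 45 fell and 0 rose, with a median of -2.11. The 1200 to 1800 base models with the same reads had medians of 0.34 and -0.80 beside these. The gap to the paired models was thus wider where reads were few, and it was also present in the 2 groups of 50 between them, which had medians of -1.84 and -2.06 against -0.47 and -0.73. The median length was 207 bases in the first group and 520 in the last, and length and coverage cannot be told apart here.

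The 200 also varied together among the controls. In control replicates 3, 6 and 7, respectively 177, 176 and 178 of the 200 lay below the mean of the other controls on the log2 scale. In control replicates 1, 2, 4 and 5 the numbers were 26, 18, 35 and 12. Over all tested models the share below the mean of the other controls was 46.5 to 50.7% in every control. Control replicate 5 was the highest control for 151 of the 200, where it was the highest for 23.9% of all tested models. Control replicate 6 was the lowest for 78 and control replicate 7 for 67, against 17.6% and 17.1% of all tested models.

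These libraries also differed in the smooth trend on length fitted to all tested models outside the 200. At 300 bases it lay at -0.13, -0.29 and -0.14 on the log2 scale in control replicates 3, 6 and 7, and at 0.09, 0.11, 0.12 and 0.25 in control replicates 1, 2, 4 and 5. Its values in the auxin-free libraries, -0.21, -0.16 and -0.12, lay within the range of the controls. The medians of the 200 did not, and neither did the shortfall of effective length given above. The steeper trend of well-covered models was not examined by library, and its removal brought the median of the 200 to -0.73. With no trend removed, the median of the 200 was -0.59 in control replicate 6 and -0.58 in control replicate 7, against -1.68 in the highest auxin-free library. The median CV of CPM over controls was 30.6% for the 200, 12.5% for the 1200 to 1800 base models with the same reads and 24.5% for all tested models. No label names a batch, and the part of the trend on length in this variation was not tested. Against control replicates 6 and 7 alone, 139 of the 200 fell and 12 rose in edgeR's test, with a median log2 fold change of -1.33. In that fit 25.3% of all tested models were called lower and 26.1% higher.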

How the data were processed

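Per the submitters' processing notes, Trimmomatic trimmed the reads and Salmon quantified them; their versions and settings were not given in the sources used here. The deposited files give, per the file headers, for each of 69500 gene models the estimated count of reads, not normalized, the TPM computed by the authors with Salmon, the length and the effective length. Groups and replicate numbers came from the sample titles.

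Estimated counts were rounded and tested with edgeR 4.0.16 (R 4.3.3): models were filtered by filterByExpr (minimum count 10), libraries scaled by TMM, and the 3 auxin-free libraries compared with the 7 controls by the robust quasi-likelihood F-test over all 37034 models that passed, adjusted by Benjamini-Hochberg and called at 0.05. SEs were derived from the F statistic. CPM values carry TMM scaling. The trend on length was a natural spline of 4 degrees of freedom on log2 length, fitted per library to models outside the 200 and entered as an offset. Pairing on control mean reads took the nearest unused model within 10%, in descending order of reads. DESeq2 1.42.0 and limma 3.58.1 (voom, and log2(TPM + 1)) were alternatives. The fits were tested on simulated data first. The 200 models and all lists were chosen with earlier results of these data known. Identifiers are printed for the 2 strongest falls and 2 strongest rises without overlap of the groups; the 10 highest ranks are described without them, and the other models mentioned were picked after their values were seen. Depth was 11280031 to 23705016 estimated reads per library.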

Additional observations from a re-analysis of the deposited data

How the results depend on the processing

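DESeq2, limma-voom, limma on log2(TPM + 1), other scalings and filters and offsets from effective lengths left the number of the 200 that fell between 158 and 171 and the number that rose between 4 and 7. Leaving out each library in turn gave 155 to 169 that fell, 4 to 5 that rose, a median log2 fold change of -1.996 to -1.78, a difference from the matched models of -1.50 to -1.35, and 150 to 163 that fell beyond the trend on length. Replicate numbers are shared by the groups, and the deviations of same-numbered libraries had correlations of 0.0702, -0.0979 and -0.0258. No pairing by number was seen in these values, but they cannot exclude one, and the labels name none. With the replicate number as a block 163 fell and 4 rose, the median was -1.98, the difference -1.46, 158 fell beyond the trend, and 20978 models in all were called, against 23434.

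Against control replicates 6 and 7 alone 12 rose, the median was -1.33 and the difference -0.93. Lists of 100 and 400 models gave 83 and 318 that fell and 2 and 14 that rose, by their size, and for 400 the median was -1.60 and the difference -1.21. A limit of 450 bases gave 8 that rose, ranking by reads 2 that rose and a difference of -1.28, and ranking by CPM per length 3 that rose. An effective length of at least 50 bases, a bound set after seeing the data, left 91 models, of which 80 fell and 1 rose. The difference was -0.94 matched on TPM, -0.59, -1.15 and -1.71 against models of 600 to 900, 900 to 1200 and 1800 to 2400 bases, and, in comparisons added after seeing the data, -1.85 above 2400 bases, -0.45 against other short models and -1.03 against the highest-TPM models of 1200 to 1800 bases. Upper-quartile scaling moved the median of all tested models from 0.02 to -0.16. Levels below a few reads, as in the deepest falls, are not resolved at this depth.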

Other observations

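The 200 short models of highest mean TPM in the auxin-free libraries included 108 that were not among the 200 chosen on the controls. Of these 108, 81 rose, 4 fell and 23 did not pass in edgeR's test, with a median log2 fold change of 1.96, while their median control TPM was 119. They were chosen by their auxin-free level, which favours a rise, so the counts describe the exchange of abundant short messages and do not test it.

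Of the 200, 11 shared a scaffold with another of the list, on 5 scaffolds. On 4 of these scaffolds the log2 fold changes of the models differed by 0.12 to 0.61, and on the fifth by 2.84, from -3.25 to -0.40. Of the 17 models with whole counts in every library (tolerance 0.001 reads), 15 fell and 0 rose, with a median log2 fold change of -1.75.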
